A study of Mus musculus with 22 samples.

Results

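The genes described are those of the neuronal intermediate filaments that build the neurofilament of axons: Nefl, Nefm and Nefh, which encode the light, medium and heavy neurofilament chains, Ina, which encodes alpha-internexin, and Prph, which encodes peripherin. They were chosen by name, and all 5 were among the 12596 genes of the deposited table. RNA was sequenced from 11 mice on a C57Bl/6 background that came from a cross of Th-cre with Slc6a2-eGFP/Rpl10a animals. The Slc6a2-eGFP/Rpl10a transgene uses sequences of Slc6a2, the noradrenaline transporter, to express the ribosomal protein Rpl10a fused to a fluorescent tag, by which ribosomes and the RNA on them can be immunoprecipitated. Of these mice 5 were infused with hTyr, human tyrosinase, a pigment-forming enzyme, and 6 with the fluorescent protein EYFP. Every animal carried the tag and gave an immunoprecipitated library (IP, labelled noradrenergic) and a library from before the immunoprecipitation (input, labelled total hindbrain). The groups were hTyr IP and hTyr input with 5 libraries each, and EYFP IP and EYFP input with 6 libraries each. The age, the dose and the time from infusion to collection were not given in the sources used here. Animals are called by the name of their IP library in the labels, and IP_501 and Pre_501 are the IP and the input of the same animal.

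Neurofilaments are built from coiled-coil proteins of a single family, in which the light chain, the medium and heavy chains with their long phosphorylated tails, and alpha-internexin assemble together. They fill large axons and set axon calibre, and they move along the axon slowly by motor proteins that run on microtubules. Peripherin belongs to the same kind of filament and is known mainly from peripheral neurons, cranial motor neurons and some brainstem groups. Monoaminergic neurons of the hindbrain have long, fine axons with many branches.

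The 5 genes belong to a single family, and the reads of related genes can be assigned only where the sequences differ. The coding sequences were read from the principal transcripts of GENCODE release M21 on GRCm38. Over the coding bases that could be aligned, identity between pairs ran from 65.8% (Nefl and Prph, 1349 aligned bases) to 72.4% (Nefh and Ina, 1470 aligned bases), and unaligned stretches, which make up most of the Nefh coding sequence in the second pair, are outside these values. The longest run of identical bases between the transcripts of any pair was 35 bases, in Nefm and Prph, and the other pairs shared runs of 13 to 23 bases.

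The coding lengths were 1629 bases in Nefl, 2544 in Nefm, 3270 in Nefh, 1503 in Ina and 1521 in Prph, and their GC content ran from 56.1% in Nefm to 64.0% in Ina. Nefl and Nefm are neighbours on chromosome 14, on opposite strands, and Nefh lies on chromosome 11, Ina on chromosome 19 and Prph on chromosome 15. Of the exon bases of Ina, 456 overlap exons of Nt5c2 on the other strand, which is also in the table, and whether counting used the strand is not given in the sources used here, so reads there cannot be assigned to either gene with certainty.

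The deposited values are log2 CPM, read counts scaled to the size of the library, and reads per gene could be recovered from them. The libraries held 12654489 to 25100142 reads in the table, and the 5 genes had between 552 reads (Prph) and 27263 reads (Nefl) in a library. In IP against input, 13 of 14 noradrenergic markers in the table were higher in EYFP animals and 14 of 14 in hTyr animals. Dbh, which makes noradrenaline, was higher by 4.02 and 4.30 on the log2 scale in EYFP and hTyr animals, Slc6a2 by 3.94 and 4.47, and Th, the first enzyme of catecholamine synthesis, by 1.99 and 2.78. Markers of other cell types were present in IP too and are given with the neurofilament values.

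Light chain came first among the 5 transcripts in every group. Per kilobase of the principal transcript, which allows genes to be compared, Nefl averaged 8.02 ± 0.11 log2 CPM per kb in EYFP input (SD, n = 6), 8.07 ± 0.07 in hTyr input (n = 5), 8.44 ± 0.23 in EYFP IP (n = 6) and 8.57 ± 0.15 in hTyr IP (n = 5). Prph came last, from 4.40 to 4.66 log2 CPM per kb in the group means. By mean log2 CPM, not scaled for length, Nefl ranked between 59 and 95 of all 12596 genes in the 4 groups, and Prph between 4857 and 5392.

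The middle of the order differed between input and IP. In input, Nefm, Nefh and Ina lay close together, at 6.37 ± 0.38, 6.19 ± 0.15 and 6.41 ± 0.10 log2 CPM per kb in EYFP animals, and at 6.39 ± 0.32, 6.20 ± 0.07 and 6.46 ± 0.07 in hTyr animals. The order of Nefm and Ina there was not the same in all animals. Nefm was below Ina in 8 of 11 input libraries, by 0.07 to 0.50 on the log2 per kb scale. It was above Ina, by 0.31 to 0.45, in the other 3, which were the inputs of IP_510, IP_511 and IP_512, whose Nefm level stands apart as given with its values. Nefh was below Ina in all 11 input libraries, by a mean of 0.22 in EYFP and 0.26 in hTyr animals. In IP, the order was Nefl, Nefm, Nefh, Ina, Prph. There Nefh was above Ina in all 11 libraries, by a mean of 0.60 in EYFP and 0.47 in hTyr animals on the log2 per kb scale. Nefm was above Nefh in 9 of 11 input libraries and in 11 of 11 IP libraries. The place of Nefm in these orders, and its share below, rest on the length of its principal transcript, 3334 bases. All annotated exons of Nefm together hold 5782 bases, and levels by that length, which would be lower, were not computed.

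**Figure D1:**
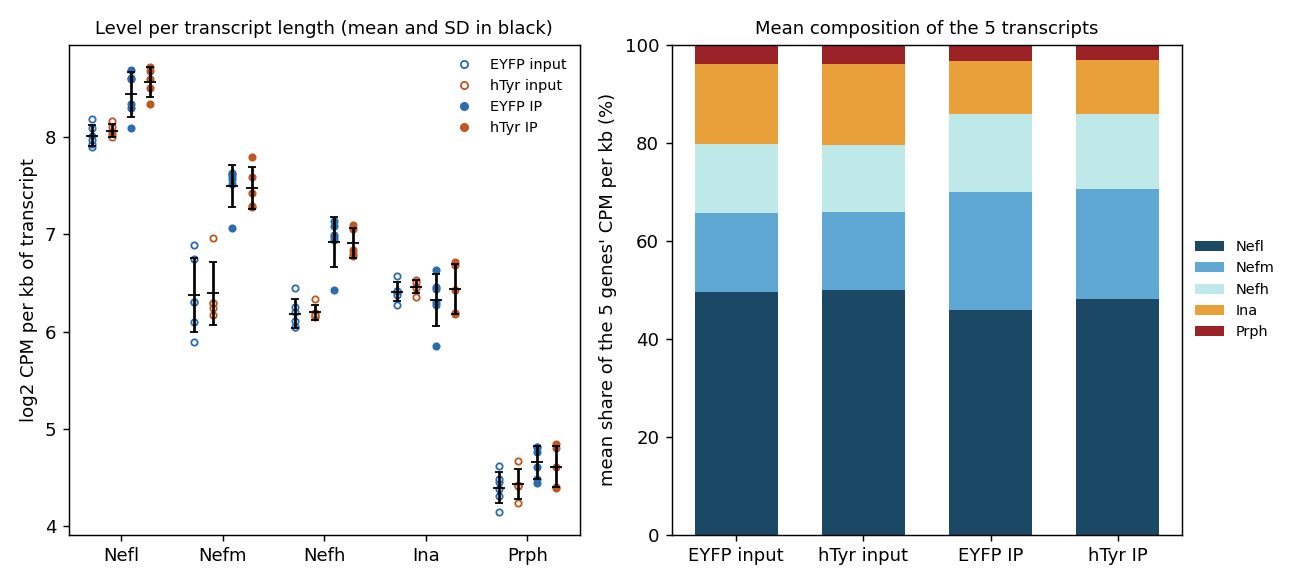
Left, log2 CPM per kb of the principal transcript for the 5 genes, 1 point per library (open for input, filled for IP, blue for EYFP with n = 6, orange for hTyr with n = 5), with the mean and SD in black; Nefl is the highest and Prph the lowest in each group, and Nefh is below Ina in input and above it in IP. Right, each gene's mean share of the summed CPM per kb of the 5 genes; the share of Nefm is 16.1% in EYFP input and 24.0% in EYFP IP.

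As shares of the summed CPM per kb of the 5 genes, Nefl made up 49.6% ± 1.4 in EYFP input and 45.9% ± 1.7 in EYFP IP (SD, n = 6). Nefm made up 16.1% ± 2.7 and 24.0% ± 1.7, and Nefh 14.0% ± 1.1 and 16.1% ± 1.1. Ina had 16.3% ± 0.87 in EYFP input and 10.7% ± 1.7 in EYFP IP, and Prph 4.04% ± 0.17 and 3.37% ± 0.54. In hTyr animals Nefm made up 15.8% ± 2.7 in input and 22.6% ± 1.9 in IP, and Ina 16.4% ± 0.92 and 11.03% ± 1.11 (SD, n = 5). The shares of Ina in IP were below those in input without overlap in both treatments. A share is relative, and it falls when the other genes of the sum rise. The log2 CPM of Ina itself overlapped between IP and input in both treatments, with changes of −0.08 in EYFP and −0.02 in hTyr animals. Such shares were formed only for the 5 genes, so no share over all genes stands beside them. The shares of Nefm in IP were above those in input without overlap in EYFP animals, while in hTyr animals the highest input share (20.6%, IP_510) was above the lowest IP share (20.2%).

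The comparison of IP with input asks which transcripts were more abundant in the immunoprecipitated RNA than in the hindbrain RNA. The IP libraries were not RNA of the tagged cells alone. Summed oligodendrocyte markers held 6513 to 8211 CPM in EYFP IP beside 7068 to 9151 in EYFP input. In hTyr animals they held 6376 to 8830 in IP and 7955 to 9763 in input. Every animal carried the tag, so the part of untagged RNA in the IP levels, order and shares of the 5 genes was not tested. All 3 neurofilament chains were higher in IP, in both EYFP and hTyr animals, with Nefm the most and Nefl the least. Ina showed no difference past the threshold in either treatment, and Prph passed it in EYFP and not in hTyr animals, with no difference between the treatments past the threshold in the interaction test. In EYFP animals 4 of the 5 genes passed an adjusted p of 0.05 in limma, all higher in IP, where 56.5% of all genes passed and 28.5% passed as higher. In hTyr animals 3 of the 5 passed, all higher, where 54.4% of all genes passed and 27.4% passed as higher. The median log2 change of the 5 genes was 0.42 in EYFP and 0.50 in hTyr animals, beside medians of −0.03 and −0.04 over all genes.

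Nefm, the medium chain, stood at 7.63 (lowest), 8.04 (median) and 8.63 (highest) log2 CPM in the 6 EYFP input libraries and at 8.81, 9.32 and 9.37 in the 6 EYFP IP libraries. In hTyr animals IP_501, IP_502, IP_508, IP_509 and IP_510, Nefm was at 7.91, 8.04, 7.98, 8.03 and 8.70 log2 CPM in input and at 9.03, 9.16, 9.02, 9.32 and 9.53 in IP. The IP libraries were all above the input libraries of the same treatment, which was so for 16.7% of all genes in EYFP and for 20.7% in hTyr animals. The log2 change was 1.13 in EYFP animals (SE 0.15, limma adjusted p = 1.32e-05), or 2.18-fold, and 1.08 in hTyr animals (SE 0.14, adjusted p = 5.97e-06), or 2.12-fold. Among all genes these changes lay at the percentiles 98.1 and 95.7. The SE, intervals and p given here and for the other 4 genes below are from fits that did not pair the IP and input of an animal, unless a replicate block is named. With animal as a replicate block, Nefm had an SE of 0.09 in EYFP (limma adjusted p = 1.22e-08) and 0.08 in hTyr animals (adjusted p = 1.03e-09).

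The input level of Nefm was uneven across animals in a way the treatments did not follow. In animals IP_510 (hTyr), IP_511 and IP_512 (both EYFP) the input libraries held 8.49 to 8.70 log2 CPM, against 7.63 to 8.04 in the other 8 animals. Their IP libraries, at 9.26 to 9.53, lay within or just above the 8.81 to 9.37 of the others. The IP minus input difference of Nefm was therefore 0.63 to 0.87 in these 3 animals and 1.03 to 1.47 in the other 8. The labels give no batch or date for these animals. Without them, a comparison added after the values were seen, the change of Nefm was 1.32 in EYFP animals (limma adjusted p = 0.000175) and 1.14 in hTyr animals (adjusted p = 6.81e-07).

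**Figure D2:**
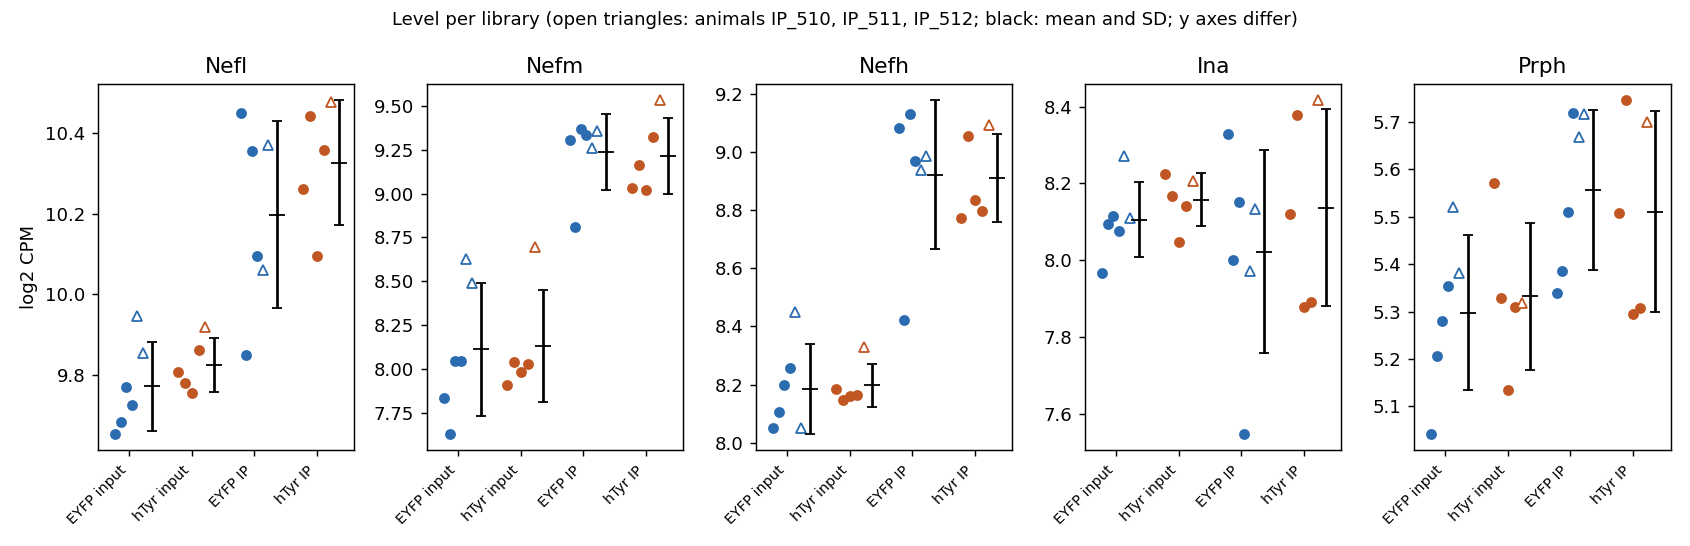
Log2 CPM of each gene in each library of the 4 groups (blue EYFP, n = 6 animals; orange hTyr, n = 5 animals; open triangles mark animals IP_510, IP_511 and IP_512; black bars, mean and SD), with a separate y axis per gene. Nefm in IP lies above Nefm in input in both treatments, Ina overlaps throughout, and the 3 open triangles of Nefm in input lie at 8.49 to 8.70.

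Nefh, the heavy chain, was at 8.05 (lowest), 8.15 (median) and 8.45 (highest) log2 CPM in EYFP input and at 8.42, 8.98 and 9.13 in EYFP IP. In hTyr animals, in the order above, Nefh was at 8.19, 8.15, 8.16, 8.16 and 8.33 in input and at 8.77, 9.06, 8.84, 8.80 and 9.09 in IP. In hTyr animals all IP libraries were above all input libraries, which was so for 20.7% of all genes. In EYFP animals 5 of the 6 IP libraries were above all input libraries. The log2 change was 0.74 in EYFP (SE 0.11, limma adjusted p = 3.24e-05), or 1.67-fold, and 0.71 in hTyr animals (SE 0.09, adjusted p = 3.17e-06), or 1.64-fold. The EYFP IP library that overlapped was IP_505, at 8.42, and without this animal the EYFP change was 0.82.

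Nefl, the light chain on which the others assemble, was at 9.66 (lowest), 9.75 (median) and 9.95 (highest) log2 CPM in EYFP input and at 9.85, 10.23 and 10.45 in EYFP IP. In hTyr animals Nefl was at 9.81, 9.78, 9.76, 9.86 and 9.92 in input and at 10.26, 10.44, 10.09, 10.36 and 10.48 in IP. As with Nefh, and with 20.7% of all genes, all IP libraries were above all input libraries in hTyr animals. In EYFP animals 5 of 6 IP libraries were above all input libraries, with IP_505 the exception. The log2 change was 0.42 in EYFP (SE 0.10, limma adjusted p = 0.00173) and 0.50 in hTyr animals (SE 0.09, adjusted p = 0.000176), or 1.34-fold and 1.42-fold.

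Ina, alpha-internexin, was at 7.97 (lowest), 8.10 (median) and 8.27 (highest) log2 CPM in EYFP input and at 7.55, 8.07 and 8.33 in EYFP IP. In hTyr animals Ina was at 8.22, 8.17, 8.05, 8.14 and 8.21 in input and at 8.12, 8.38, 7.88, 7.89 and 8.42 in IP. The IP libraries spread to both sides of the input libraries. The log2 change was −0.08 in EYFP animals (95% interval −0.30 to 0.13, limma adjusted p = 0.507) and −0.02 in hTyr animals (95% interval −0.24 to 0.20, adjusted p = 0.882).

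Prph, peripherin, was at 5.04 (lowest), 5.32 (median) and 5.52 (highest) log2 CPM in EYFP input and at 5.34, 5.59 and 5.72 in EYFP IP. In hTyr animals Prph was at 5.57, 5.33, 5.14, 5.31 and 5.32 in input and at 5.51, 5.74, 5.29, 5.31 and 5.70 in IP. The groups overlapped in both treatments. The log2 change was 0.26 in EYFP animals (SE 0.09, limma adjusted p = 0.0239) and 0.18 in hTyr animals (95% interval −0.05 to 0.41, adjusted p = 0.180). The EYFP call was lost without animal IP_506 (adjusted p = 0.0555), IP_507 (0.0679) or IP_512 (0.0629), and without IP_510, IP_511 and IP_512 together (0.0611). It was lost too with quantile normalization (adjusted p = 0.0699), median centring (0.0644) and total reads as a covariate (0.0537). These fits did not pair the IP and input of an animal. With animal as a replicate block, the EYFP change kept its call (SE 0.06, limma adjusted p = 0.00174). The hTyr change did not pass with the block (adjusted p = 0.118). Prph was higher in IP than in the input of the same animal in 6 of 6 EYFP and 3 of 5 hTyr animals. With the trend over transcript length and GC content removed, an alternative added after the data were seen, the change was 0.45 in EYFP (adjusted p = 0.00104) and 0.48 in hTyr animals (adjusted p = 0.000749).

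Within animals, IP exceeded input in 11 of 11 animals for Nefm, Nefh and Nefl, in 9 of 11 for Prph and in 5 of 11 for Ina. The mean difference over the 11 animals was 1.11 ± 0.25 for Nefm, 0.73 ± 0.22 for Nefh, 0.46 ± 0.20 for Nefl, 0.22 ± 0.16 for Prph and −0.05 ± 0.26 for Ina on the log2 scale (SD, n = 11). The difference of Nefh exceeded that of Nefl in 11 of 11 animals, and that of Nefm exceeded that of Nefh in 10 of 11. The full order Nefm, Nefh, Nefl, Prph, Ina was seen in 7 of the 11 animals. The difference of Nefl exceeded that of Ina in 11 of 11 animals, by 0.51 ± 0.18.

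**Figure D3:**
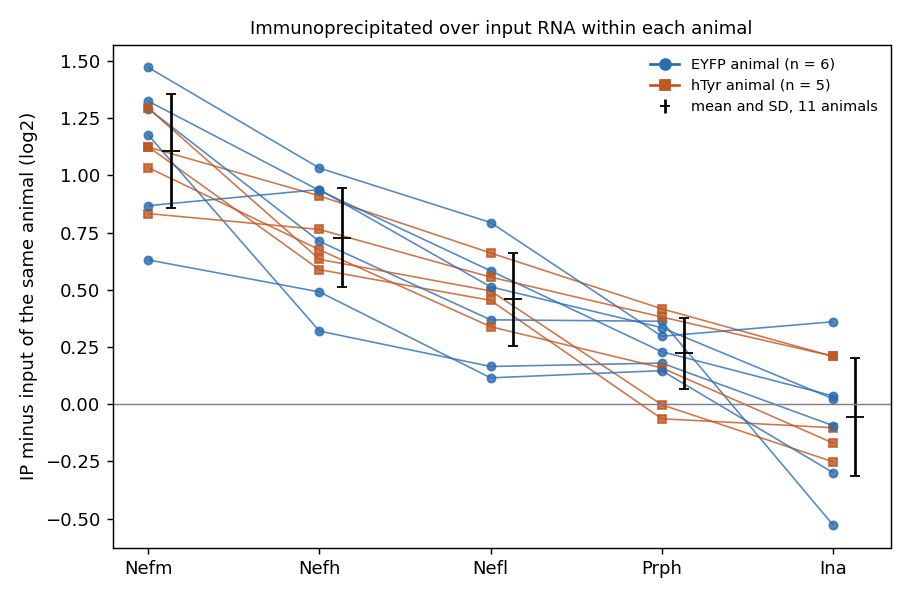
IP minus input of the same animal in log2 units for the 5 genes, with 1 line per animal (blue circles EYFP, n = 6; orange squares hTyr, n = 5) and the mean and SD of the 11 animals in black. The lines fall from Nefm, with all animals between 0.63 and 1.47, to Ina, with animals on both sides of 0.

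When the mean of the noradrenergic markers was added to the fit as a covariate, 0 of the 5 genes passed in either treatment, and so did 0 of all genes in EYFP and 1028 in hTyr animals. That mean itself differs between IP and input. The genes of other neurons and glia also moved with IP. Of all genes, 28.5% passed as higher in IP and 28.1% as lower in EYFP animals, and 27.4% and 27.0% in hTyr animals. Of the 10 cholinergic motor neuron markers, 5 were in the table, and 4 of them rose in IP in both treatments. Among them were Chat, which makes acetylcholine, at 0.55 in EYFP and 0.66 in hTyr animals, Slc5a7, the choline transporter, at 1.27 and 1.49, and Chodl at 1.63 and 1.89. Slc18a3, the vesicular acetylcholine transporter, did not pass, at −0.04 and −0.20. The defining factors Isl1 and Mnx1 were not in the table. The summed level of this list was 42.1 to 56.5 CPM in EYFP input, 45.3 to 59.9 in hTyr input, 68.5 to 105 in EYFP IP and 84.9 to 165 in hTyr IP. The part of these cells in the neurofilament values was not tested.

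Mesencephalic trigeminal neurons, large sensory neurons that lie beside the locus coeruleus, are rich in neurofilament, and their markers did not rise. Of the 13 names on that list 6 were in the table (Drg11, 1 of the others, is an older name of Prrxl1, which was), and 0 rose and 2 fell in IP in each treatment. Pou4f1, a sensory neuron transcription factor, changed by −0.26 in EYFP (limma adjusted p = 0.0245) and by −0.14 in hTyr animals (adjusted p = 0.252), and Piezo2, the mechanosensory channel, was not in the table. Their summed level was 707 to 764 CPM in EYFP input, 689 to 805 in hTyr input, 596 to 723 in EYFP IP and 542 to 692 in hTyr IP. Of 10 oligodendrocyte markers 6 fell in IP in each treatment, with 1 higher in EYFP and 2 in hTyr animals, and Mbp, a myelin protein gene, fell by 0.55 and 0.65. The summed level of these 10 was 7068 to 9151 CPM in EYFP input, 7955 to 9763 in hTyr input, 6513 to 8211 in EYFP IP and 6376 to 8830 in hTyr IP. Of 8 astrocyte markers 3 rose and 2 fell in EYFP animals and 4 rose and 2 fell in hTyr animals, and of 8 microglia markers 0 rose and 1 fell in EYFP and 1 rose and 1 fell in hTyr animals. The serotonergic list had 2 of 6 higher and 2 lower in EYFP and 2 higher and 1 lower in hTyr animals, and the glutamatergic and GABAergic list 4 of 7 higher and 1 lower and 3 higher and 1 lower. The part of these cells in the neurofilament values was not tested either.

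Genes that act with the filaments were mixed in IP against input. The shares over all genes, to be read beside the counts, were 28.5% higher and 28.1% lower in EYFP animals. In hTyr animals they were 27.4% and 27.0%. Of 9 other intermediate filament genes in the table, 3 were higher and 1 was lower in EYFP animals and 3 were higher and 2 lower in hTyr animals. Vim, vimentin of glia and vessels, was higher by 0.46 in EYFP animals, Lmna, a lamin of the nuclear envelope, by 0.42 in EYFP and 0.52 in hTyr animals, and Synm, synemin, by 0.54 in hTyr animals, while Krt222 fell by 0.43 and 0.45. Of 12 linkers and transport motors 4 were higher and 3 lower in each treatment. Myo5a, a myosin that binds the light chain, was higher by 1.08 and 1.22. Kif5a, a kinesin heavy chain that moves neurofilaments, fell by 0.59 and 0.67, and Plec, plectin, which links filaments to other cytoskeleton, by 0.83 and 1.10.

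Of 14 kinases and phosphatases that act on neurofilament tails, 4 rose and 6 fell in EYFP animals and 5 rose and 5 fell in hTyr animals. Among all genes 28.5% rose and 28.1% fell in EYFP animals, and 27.4% rose and 27.0% fell in hTyr animals. Gsk3a, a kinase, fell by 0.68 and 0.73, and Ppp2r1a, a subunit of protein phosphatase 2A, rose by 0.50 and 0.49. Mapk8, the kinase JNK1, rose by 0.35 in EYFP animals, and Cdk5r2, an activator of Cdk5, fell by 0.50 in hTyr animals. In the list of turnover and chaperone genes 6 of 9 rose and 1 fell in EYFP animals, and 5 rose and 2 fell in hTyr animals. Hspa8, the constitutive heat shock protein 70, rose by 1.01 and 1.21, Capn2, a calpain protease that cuts neurofilaments, by 0.90 and 1.00, and Trim2, a ubiquitin ligase for the light chain, by 0.45 and 0.61.

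Of 10 proteins known to bind or regulate neurofilament mRNA, 6 rose and 1 fell in each treatment. Among all genes 28.5% rose and 28.1% fell in EYFP animals, and 27.4% rose and 27.0% fell in hTyr animals. Elavl2 and Elavl4, neuronal RNA-binding proteins that stabilise transcripts, rose by 0.72 and 0.56 in EYFP animals and by 1.00 and 0.75 in hTyr animals, and Hnrnpk by 0.71 and 0.79. Of 17 neuronal microtubule genes, which form the tracks for filament transport, 11 rose and 1 fell in EYFP animals and 10 rose and 1 fell in hTyr animals. The tubulin genes Tubb2a and Tubb2b rose by 1.04 and 0.91 in EYFP animals and by 0.99 and 0.94 in hTyr animals, Tubb3 by 0.92 in EYFP animals and Tuba1a by 0.83 in hTyr animals. The median change of this list was 0.32 in EYFP and 0.46 in hTyr animals, beside the 0.42 and 0.50 of the 5 filament genes.

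The comparison of hTyr with EYFP asks whether the human enzyme changed these transcripts. No change past the threshold was seen in any of the 5 genes. In IP 0 of the 5 passed an adjusted p of 0.05 in limma, 0 had an unadjusted p under 0.05, and 0 passed with voom weights, where 0.0556% of all genes passed (7 genes) and 6.19% had an unadjusted p under 0.05. The log2 changes of hTyr against EYFP in IP were 0.13 for Nefl (SE 0.11), −0.02 for Nefm (SE 0.12), −0.01 for Nefh (SE 0.12), 0.11 for Ina (SE 0.13) and −0.05 for Prph (SE 0.11), with adjusted p from 0.897 to 0.993. The 95% intervals of the fold ran from 0.925 to 1.29 for Nefl, from 0.829 to 1.17 for Nefm, from 0.838 to 1.18 for Nefh, from 0.892 to 1.31 for Ina and from 0.827 to 1.14 for Prph. The IP libraries of the 2 treatments overlapped in each of the 5 genes, and 0.651% of all genes did not overlap.

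In input 0 of the 5 passed in limma, 0 had an unadjusted p under 0.05 and 0 passed with voom weights, where 0.00794% of all genes passed (1 gene) and 3.03% had an unadjusted p under 0.05. That gene was Slc6a2, whose sequences drive the tag, and it fell by 0.91 in hTyr against EYFP input (adjusted p = 0.0339), while in hTyr IP it changed by −0.39 (adjusted p = 0.854). The input call of Slc6a2 was lost when any animal but IP_504 or IP_509 was left out (9 of 11 cases, with changes from −0.96 to −0.84 and adjusted p from 0.0348 to 0.166 over the 11). It was lost too under 5 of 13 other alternatives, among them total reads as a covariate (adjusted p = 0.217), 1 spread over all 22 libraries (adjusted p = 1.00) and the fit without IP_510, IP_511 and IP_512 (adjusted p = 1.00). In bulk RNA, fewer cells of a type and less RNA per cell cannot be told apart. The log2 changes of the 5 genes in input were 0.05 for Nefl, 0.02 for Nefm, 0.01 for Nefh, 0.05 for Ina and 0.03 for Prph, with adjusted p from 0.990 to 0.996. The input libraries of the 2 treatments overlapped in each of the 5 genes too, and 0.175% of all genes did not overlap. The widest 95% interval of the fold was that of Nefm, 0.789 to 1.30, and the narrowest that of Ina, 0.947 to 1.14.

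**Figure D4:**
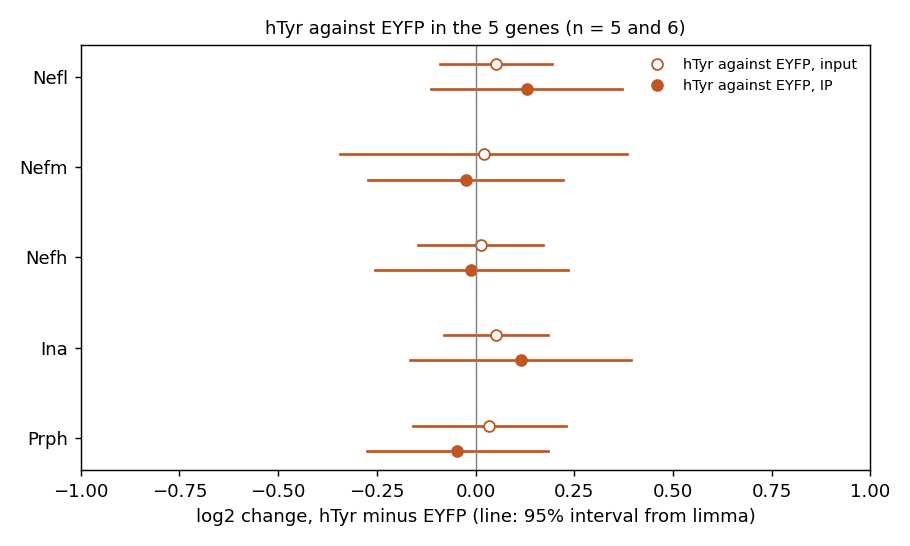
Log2 change of hTyr (n = 5) against EYFP (n = 6) for the 5 genes in input (open circles) and IP (filled circles), with the 95% interval from limma as a line. Each interval crosses 0, and the points lie between −0.05 and 0.13.

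No difference of the hTyr effect between IP and input passed the threshold in these genes. The interaction was 0.08 for Nefl (95% interval −0.20 to 0.35), −0.05 for Nefm (−0.50 to 0.41), −0.02 for Nefh (−0.32 to 0.27), 0.06 for Ina (−0.25 to 0.38) and −0.08 for Prph (−0.38 to 0.22), with limma adjusted p from 0.996 to 0.997. Of the 5 genes 0 passed, 0 had an unadjusted p under 0.05 and 0 passed with voom weights, where 0.00794% of all genes passed and 3.31% had an unadjusted p under 0.05. This is also the test of whether the IP against input change of Prph differed between treatments. Its intervals come from a fit that does not pair the IP and input of an animal. With animal as a replicate block the SE was 0.13 in place of 0.22 for Nefm, and 0.11 in place of 0.14 for Prph. With the block, 0 of the 5 genes passed, with limma adjusted p from 0.883 to 0.971.

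Of the partner lists, 0 genes passed in hTyr against EYFP, in IP, in input or in the interaction. The lowest p in IP was that of Dync1h1, the dynein heavy chain, at −0.29 (limma adjusted p = 0.683). Elavl2 stood at 0.23 in IP (adjusted p = 0.787) and at 0.28 in the interaction (adjusted p = 0.996), Lmnb2, a lamin, at −0.31 in IP (adjusted p = 0.803), and Dpysl2, a tubulin-binding protein of axons, at −0.21 in input (adjusted p = 0.990). Among all genes in the partner lists these 4 alone had an unadjusted p under 0.05 in any of the 3 comparisons. Of the 14 noradrenergic markers, 0 passed in IP, where Th stood at 0.99 (adjusted p = 0.533).

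After the group means were taken out, the levels of the 5 genes varied together to different degrees over the 22 libraries, which share animals in pairs and differ in depth. The highest Pearson r between members was 0.78, for Nefl and Nefh, and Nefh ranked 111 of 12595 genes in likeness to Nefl. Nefl and Nefm had r = 0.68, Nefl and Ina 0.66, and Nefm and Nefh 0.63. The other pairs lay between 0.27 (Nefm and Ina) and 0.48 (Nefh and Prph). This order did not hold within input or within IP. In the 11 input libraries alone, Nefl and Nefm had the highest r, 0.897, and Nefl and Nefh had 0.671. In the 11 IP libraries alone, Nefm and Nefh had the highest, 0.821, and Nefl and Nefh had 0.818. Ina and Prph had r = 0.877 in input and 0.186 in IP, and Nefm and Ina 0.586 and 0.227. The likeness to other genes given next is over all 22 libraries. Among the 3 genes most like each member were Pfkp, Pygb and Supt16 for Nefl (r from 0.89 to 0.90), Ncl, Dock1 and Mfap1a for Nefm (0.85 to 0.88), Dpysl3, Acss2 and Copg1 for Nefh (0.86 to 0.88), Fto and Irs2 for Ina (0.91 and 0.92), and Fxr2, Myh14 and Slc18a3 for Prph (0.75 to 0.76).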

How the data were processed

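The labels' protocols say that a service company made the libraries. STAR, featureCounts and the mm10 build are named in the submitters' processing notes, with versions, annotation, filter and strand setting not given in the sources used here. The authors deposited 1 table of log2 values. Their back-transformed sums (972556 to 1040933 per library) and steps showed log2 CPM with a pseudocount averaging 2 reads, and 100% of values came out as whole reads (within 0.05 reads), which gave the depth in reads of the filtered table. Intervals therefore speak of the spread between libraries and not of reads outside the table.

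Tests ran on the deposited log2 values of all 12596 genes with limma 3.58.1 (mean-variance trend) in R 4.3.3, with Benjamini-Hochberg adjusted p under 0.05 as the threshold, and adjusted p-values in the text are from this fit. A fold change of such values understates the change of low genes. The fits took in the libraries of the 2 groups compared, or all 22 for the interaction. They were also run on simulated counts, which did not carry the pairing of animals. That run therefore does not show how pairing bears on the SE or p. With voom on the recovered reads 7138 genes passed in IP against input in EYFP, 6875 in hTyr animals, 7 in hTyr against EYFP in IP and 1 in input. Animal numbers in the titles pair IP with input, and IP and input deviations of the same animal correlated at 0.279 to 0.626, against a mean of −0.04 for different animals. Whether animals share a litter or a day is not given, so p-values measure only the spread between these animals. Per-length levels used the principal transcript of GENCODE M21 (GRCm38), because an alternative Nefm transcript runs past Nefl.

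The members and lists were chosen with earlier results of these data known. Named genes were the 5 members, the 3 genes most like each after removal of group means, up to 3 genes of lowest p per partner list and comparison, and fixed markers, with further markers given by their list. Some genes that this rule names are not reported here. Levels in groups are mean ± SD over animals. Alternatives changed the variance model, normalization, filter, pseudocount, weights, covariates, replicate block and animals. After the data were seen, fits without animals IP_510, IP_511 and IP_512 and with the trend over length and GC content removed (98.3% of genes had both) were added.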

Additional observations from a re-analysis of the deposited data

Results flagged for a closer look

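Of 30 groups of 5 or 6 values examined (levels and IP minus input differences of the 5 genes), 4 had a library far from the others by Dixon's gap test, where chance gives about 1.5. Nefm in hTyr input stood at 8.70 log2 CPM in animal IP_510, with the nearest library at 8.04. Nefh in hTyr input stood at 8.33 in the same animal, with the nearest at 8.19. Nefm in EYFP IP stood at 8.81 in animal IP_505, with the nearest at 9.26. Nefh in EYFP IP stood at 8.42 in the same animal, with the nearest at 8.94. Without animal IP_505, the change of IP against input in EYFP animals was 1.12 for Nefm and 0.82 for Nefh, and 4 of the 5 genes passed.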

How the results depend on the processing

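In hTyr against EYFP, 0 of the 5 genes passed under any of the 24 alternatives in IP, the 24 in input and the 25 for the interaction. With animal as a replicate block, 4 of the 5 genes still passed in IP against input in EYFP and 3 in hTyr animals, and the block changed no call of a member. It raised the genes called in the interaction from 1 to 5. With the mean of the noradrenergic markers as a covariate, 0 of the 5 passed in IP against input in either treatment, and the value of Nefl in EYFP animals was −0.53 and that of Prph in hTyr animals −0.18. Under the other alternatives Nefl, Nefm and Nefh kept their direction and their side of the threshold in both treatments. Prph in EYFP animals lost its call under 8 of 21 alternatives. Prph had the fewest reads of the 5 genes, 552 in its lowest library, and no limit from depth was tested. The cause of these changes was not tested.

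Signs turned in values that passed no threshold in the reported fits. In IP against input, Ina was 0.030 in EYFP animals and 0.143 in hTyr animals with the length and GC trend removed, with or without the replicate block, and in hTyr animals 0.0087 with sample weights and 0.099 with total reads as a covariate. In hTyr against EYFP in IP, total reads as a covariate gave 0.052 for Nefm and 0.034 for Nefh, and without the trend over length and GC the values were 0.022 for Nefm, 0.040 for Nefh and 0.0052 for Prph. In input, sample weights gave −0.045 for Nefm, −0.0069 for Nefh and −0.0033 for Prph, the glial mean as a covariate −0.014 for Nefm, quantile normalization −0.0026 for Nefh, total reads −0.017 for Prph, and the length and GC trend −0.026 for Prph. In the interaction, the length and GC trend, with or without the block, gave 0.012 for Nefm, 0.031 for Nefh and 0.032 for Prph, total reads gave 0.030 for Nefh and 0.00041 for Prph, and Ina was −0.030 with the noradrenergic mean as a covariate and −0.023 without animals IP_510, IP_511 and IP_512.

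With each animal left out in turn, hTyr against EYFP in IP ran from −0.11 to 0.024 for Nefm, from −0.11 to 0.031 for Nefh and from −0.10 to 0.0083 for Prph, while Nefl ran from 0.060 to 0.188 and Ina from 0.020 to 0.179, each above 0 throughout and past no threshold. In input it ran from −0.12 to 0.12 for Nefm, from −0.020 to 0.066 for Nefh and from −0.025 to 0.084 for Prph. IP against input of Ina ran from −0.17 to 0.0059 in EYFP and from −0.078 to 0.037 in hTyr animals. The interaction ran from −0.14 to 0.024 for Nefm, from −0.11 to 0.035 for Nefh and from −0.027 to 0.15 for Ina.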
